A study of Mus musculus with 8 samples.

Results

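The genes described here were 95 long intergenic noncoding RNA (lincRNA) genes of mouse brain. They were chosen as the genes that the deposited annotation classed as lincRNA and whose mRNA RPKM (reads normalized for transcript length and library size) averaged at least 2 over 8 libraries. They made up 1.71% of the 5559 lincRNA genes in a table of 54532 genes. A further 2957 lincRNA genes had no mRNA count at all. The choice used the mRNA level, so that level is described without a test. The rule itself does not use the change with genotype.

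LincRNAs are transcribed, capped and usually spliced like mRNAs, but are annotated as having no long open reading frame. Many act as RNA in the nucleus, by scaffolding proteins or holding them at chromatin, and others act in the cytoplasm by binding proteins or microRNAs. Some are chiefly the precursors of microRNAs or small nucleolar RNAs, which are cut from them. A lincRNA in the cytoplasm can still meet ribosomes, and a few annotated lincRNAs encode small proteins. In ribosome profiling, RNA outside ribosomes is digested and the short pieces left inside them, the footprints, are sequenced.

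The study compared wild-type (WT) mice with mice lacking Nsun5 (KO), a ribosomal RNA cytosine methyltransferase, to ask how loss of that modification affects the brain. Each genotype had 4 footprint libraries and 4 mRNA libraries from whole brain. The protocol describes 5 male mice per genotype, 3 months old and littermates, but the labels tie no library to an animal. P-values therefore measure the spread between these libraries, which may be technical, and in bulk tissue fewer cells of a type and less RNA per cell cannot be told apart.

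Libraries held 15642086 to 17829523 mRNA counts. Footprint libraries were shallower and uneven, with totals of 1201263, 2835358, 3493841 and 2926597 for WT and 1236851, 1296876, 586392 and 1230192 for KO. Nsun5 itself did not mark the genotype in these tables: its mRNA counts were 91, 82, 103 and 109 in WT and 102, 124, 83 and 110 in the libraries labelled KO, a log2 difference of 0.12 ± 0.15 (SE; adjusted p = 0.82 by edgeR). Counts per gene do not show which exons are deleted, so directions below follow the labels. Neuronal and glial markers were present as the brain label requires, while cerebellar markers were mixed. Of 8 on the list, 4 passed the mRNA filter, and the Purkinje and granule cell markers Pcp2 and Gabra6 had only 31 and 34 mRNA counts over all libraries. Regional markers differed between libraries. The summed RPKM of 10 hypothalamic markers was 97.3 to 158 in WT libraries 1 to 3 and 2.81 to 16 in the remaining 5.

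Several members carry brain microRNAs. All 3 loci of miR-9, a regulator of neural progenitors, lay inside members: Mir9-1 in Gm3764 on chromosome 3, Mir9-2 in C130071C03Rik on chromosome 13, and Mir9-3 in Mir9-3hg on chromosome 7. The 3 loci give the same mature RNAs, shown because they tie these 3 hosts together. The sequences are from RefSeq (GRCm38.p6), with the seed, bases 2 to 8, in capitals. The hairpin in Mir9-3hg is at chr7:79505264-79505353 on the plus strand.
mmu-miR-9-5p: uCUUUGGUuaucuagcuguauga
mmu-miR-9-3p: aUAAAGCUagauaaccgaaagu

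Loci of miR-124, an abundant neuronal microRNA, lay inside Mir124a-1hg and Mir124-2hg and overlapped Gm27032. In all, 10 of the 95 members (10.5%) overlapped a microRNA gene on their own strand, against 1.83% of the 2507 other lincRNA genes with any mRNA count. Counting every class of small RNA gene on either strand it was 17 members (17.9%), against 5.7%. Footprint counts on the hairpins were uneven. Mir9-3 collected 3420 counts, of which the WT libraries gave 264, 708, 497 and 1278 and the KO libraries 205, 180, 136 and 152, while Mir9-1 and Mir9-2 had 0. Reads of identical mature sequence cannot be assigned to a locus, so the 3 values do not rank the loci. The Mir9-3 counts are not scaled to the footprint totals of the libraries, which ran from 586392 to 3493841. No change with genotype is read from them. Mir9-3hg itself held 107 footprint counts. Snord87, a small nucleolar RNA, had 3378 counts against 75 for its host Snhg6. Counts on such small RNAs come from short RNA in the footprint libraries, and whether any was protected by ribosomes was not tested.

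Members often stood close to protein-coding genes. For 23 of 95 (24.2%), a coding gene started on the opposite strand within 1000 bases, against 9.57% of the same 2507 lincRNA genes. Examples were Pantr1, 926 bases from Pou3f3, which encodes a transcription factor of cortical neurons, and Fam120aos, 270 bases from Fam120a. Another 14 members (14.7%) lay on the same strand within 5000 bases downstream of a coding gene, against 4.35% of the other lincRNA genes. Gm20300, 1507 bases beyond Hint3, was of this kind. Reads from extended ends of the coding transcript would count for such members, and this was not tested. These shares describe genes chosen by level.

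Promoter sequence was available with a matching start for 43 members. In the window from 250 bases before to 50 bases after the start, they held a median of 13 CG dinucleotides, with a range of 0 to 60. Of these, 26 (60.5%) held at least 10, against 43.5% of all 32851 promoters in the RefSeq table. That background was not filtered by mRNA level, by which the members were chosen. The difference is therefore not shown to be particular to lincRNAs. The motif CG reads the same on both strands. The contrast among highly expressed members is shown by B230209E15Rik, with 0 (chr7:61615278-61615577, minus strand), and 1700020I14Rik, with 15 (chr2:119594046-119594345, plus strand), each written 5′ to 3′ with CG in capitals (RefSeq, GRCm38.p6).
B230209E15Rik: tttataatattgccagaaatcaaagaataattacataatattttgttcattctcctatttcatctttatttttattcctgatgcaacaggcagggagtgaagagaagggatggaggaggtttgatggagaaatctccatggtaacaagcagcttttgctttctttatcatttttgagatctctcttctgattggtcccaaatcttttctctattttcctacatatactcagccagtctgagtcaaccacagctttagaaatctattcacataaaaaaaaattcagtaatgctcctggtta
1700020I14Rik: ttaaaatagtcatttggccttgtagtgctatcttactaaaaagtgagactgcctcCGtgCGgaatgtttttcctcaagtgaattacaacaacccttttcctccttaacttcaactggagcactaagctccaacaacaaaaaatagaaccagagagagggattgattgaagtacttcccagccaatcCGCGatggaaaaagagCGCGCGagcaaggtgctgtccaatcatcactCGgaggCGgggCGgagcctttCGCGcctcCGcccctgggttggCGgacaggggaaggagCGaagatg

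A few lincRNAs held most of the mRNA counts on members. Norad (2900097C17Rik), 6330403K07Rik and Oip5os1 (1700020I14Rik), the highest in RPKM, together held 57.3% of those 497476 counts. In counts, Meg3 (42229) stood above 6330403K07Rik (35396). The members as a whole took 0.361 to 0.385% of each library. The median member had a mean mRNA level of 4.1 RPKM, 14 members reached 10 RPKM and 54 lay under 5. Just inside the threshold of 2 RPKM stood Gm44866 (2.13 RPKM), Gm20063 (2.098 RPKM), Dubr (2.03 RPKM), AC114585.1 (2.022 RPKM) and Gm27042 (2.013 RPKM). Just outside were 1700047M11Rik (1.997 RPKM), Gm3510 (1.989 RPKM), Gm17753 (1.986 RPKM), Gm42500 (1.985 RPKM) and C130083M11Rik (1.977 RPKM).

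Norad, a cytoplasmic RNA that binds Pumilio proteins (ENSMUSG00000102869, chr2:156388065-156392979, minus strand, mm10), was the highest. Its mRNA level was 239, 241, 238 and 241 RPKM in WT and 248, 236, 263 and 243 RPKM in KO, so the groups overlapped. The next was 6330403K07Rik (ENSMUSG00000018451, chr11:71031941-71033513, minus strand), which RefSeq classes as protein coding. It read 194, 205, 143 and 197 RPKM in WT and 156, 170, 160 and 182 RPKM in KO, with WT library 3 below every KO library. Oip5os1, also called Cyrano, which directs the destruction of miR-7 (ENSMUSG00000085438, chr2:119594297-119607502, plus strand), followed at 70.9 ± 5.99 RPKM in WT and 87.6 ± 4.45 RPKM in KO (SD, n = 4 each). These 3 did not overlap one another in any library.

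Below them the order was less firm. Gm10076, a pseudogene in RefSeq, ranged from 11.4 to 55.9 RPKM over the 8 libraries, the widest spread relative to the mean among the 12 most abundant members, and overlapped Tmem250-ps and B230209E15Rik. Tmem250-ps stood at 25.7 ± 2.49 RPKM in WT and 27.4 ± 2.14 RPKM in KO, and B230209E15Rik at 22.6 ± 3.51 and 22.7 ± 1.63 RPKM (SD, n = 4 each). Meg3, the imprinted RNA expressed from the maternal chromosome at Dlk1-Dio3 (ENSMUSG00000021268, chr12:109541001-109571726, plus strand), read 16.6, 19.5, 23.5 and 16.8 RPKM in WT and 16.5, 19, 15.3 and 12 RPKM in KO. Meg3 was thus not separable in level from 2900052N01Rik, at a mean of 15.96 RPKM, or Dbpht2, at 14.25 RPKM. Gm20300, Gm10419 and Gm1976 completed the 12, at means of 13.12, 12.27 and 11.98 RPKM.

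**Figure D1:**
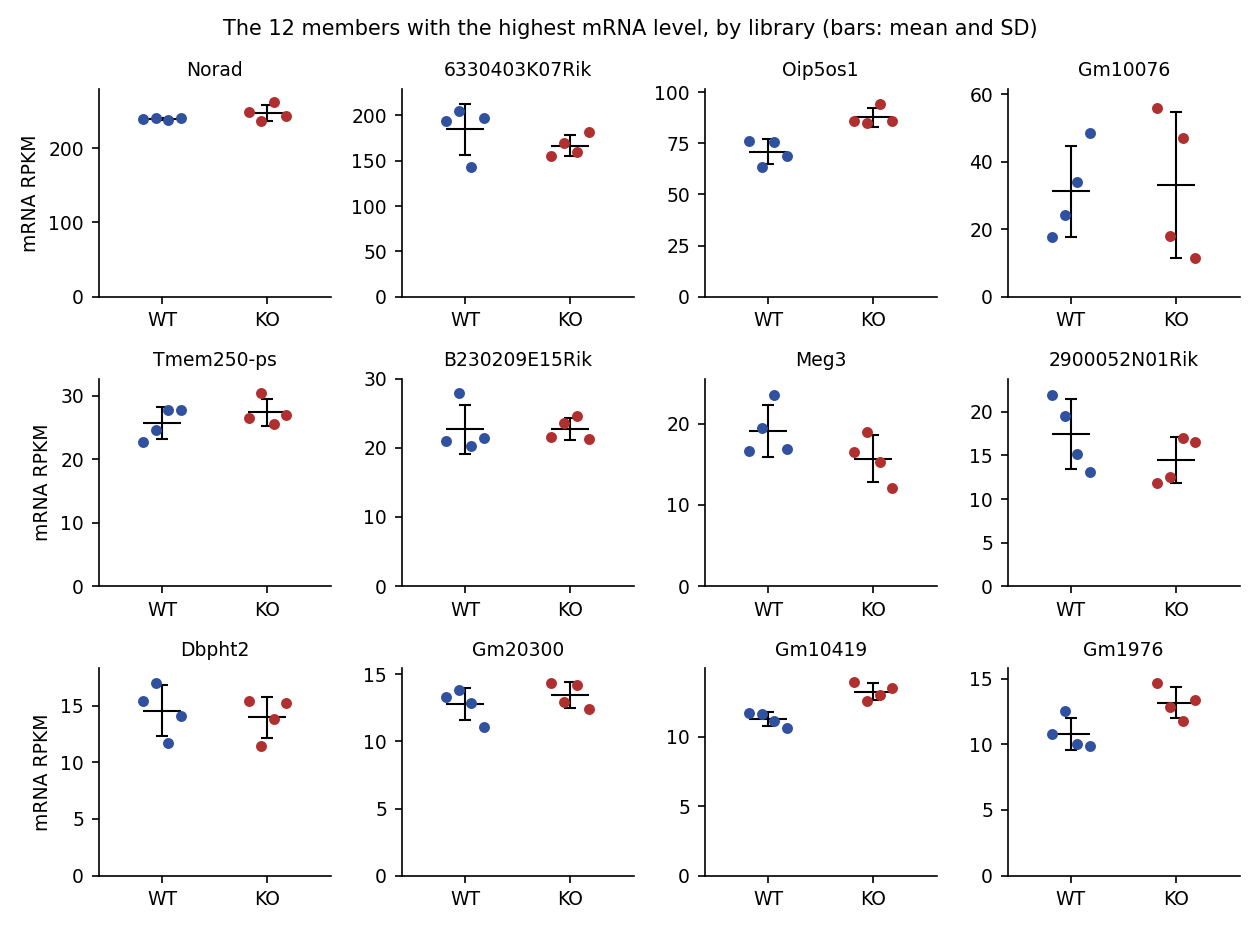
mRNA RPKM (y axis, from 0) of the 12 most abundant members in the 4 WT (blue) and 4 KO (red) libraries, with the mean and SD as black bars. Norad sits near 240 RPKM in every library, Gm10076 spreads from 11.4 to 55.9 RPKM, and the KO points of Oip5os1 and Gm10419 lie above all their WT points.

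Footprints were scarce on lincRNAs. Relative to mRNA they were lower on members than on protein-coding genes of the same minimum mRNA level. Here a footprint is any read of the footprint libraries counted on a gene. Whether ribosomes protected such reads on members, nuclear RNAs among them, was not tested. For each gene and library the log2 of footprint RPKM + 0.1 over mRNA RPKM + 0.1 was taken and averaged over 8 libraries. The 2 tables were scaled separately, so 0 on this scale is arbitrary and only differences between genes can be read. The median was -3.11 over the 95 members (quartiles -4.37 and -2.22) and -1.37 over 10285 protein-coding genes (quartiles -2.05 and -0.77), a difference of -1.74 or 3.34-fold. By position in the coding distribution, 13 members lay above the coding median, 39 between it and the coding 5th percentile of -3.33, and 43 below that percentile. The size of this difference moved with the treatment of low values: it was -2.92 or -0.52 with a pseudocount of 0.01 or 1, and -1.11 as a ratio of mean RPKM. It was -0.87 when members and coding genes under 20 footprint counts were left out alike, a minimum on the numerator that removes low ratios by construction.

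Depth limited this measure. There were 9 members with 0 footprint counts in all libraries (9.47%, against 0.36% of the coding genes), 40 with 1 to 19 and 46 with at least 20. For a member at 0, up to 3 counts over all libraries are allowed by counting error. Members were shorter than coding genes, at a median of 1752 against 4455 bases, and had a median of 16 footprint counts against 250. The median ratio of members was -3.16, -2.74, -2.75 and -3.0 in the WT libraries and -4.49, -3.59, -4.24 and -4.08 in the KO libraries, without overlap. The coding median also separated, by a smaller margin. It was -1.25, -1.29, -1.27 and -1.28 in WT and -1.34, -1.31, -1.38 and -1.33 in KO. The number of members with any footprint count also separated by genotype, at 62, 67, 66 and 70 in WT and 41, 55, 45 and 47 in KO. The same number for other genes of like footprint depth is not given here, so this separation cannot be called particular to members. Footprint depth on coding and lincRNA genes moved with genotype too. It was 797777, 1478866, 1219213 and 1185483 counts for WT, and 372953, 852130, 234454 and 455359 for KO. The depths overlapped only between WT library 1 and KO library 2, whose median ratios were -3.16 and -3.59, and the part of depth in the gap was not tested. The members' share of the coding and lincRNA footprint counts overlapped, at 0.138 to 0.199% in WT and 0.129 to 0.168% in KO.

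Of the other noncoding classes at 2 RPKM or more, some had medians near that of the members. The value was -3.33 for 63 antisense genes, -2.65 for 55 processed transcripts and -3.09 for 13 bidirectional promoter lncRNAs. Genes of the class TEC, transcripts with provisional annotation, were lower, at -4.61 (n = 29), as were processed pseudogenes, at -5.77 (n = 312). However, 20.7% of the TEC genes and 79.5% of the processed pseudogenes had 0 footprint counts. The share was 12.7% for antisense genes, 1.82% for processed transcripts and 7.69% for bidirectional promoter lncRNAs. A gene without footprint counts has a ratio set by the pseudocount and its mRNA level, so these medians do not rank the classes. Among members, the 14 downstream of a coding gene on the same strand had a median of -5.02, the 23 with an opposite coding start -3.11 and the remaining 58 -2.96. Of those 14, only 1700003M07Rik (55) and 4933404O12Rik (31) had at least 20 footprint counts. Gm43690, Gm47814, AC154760.1 and A530017D24Rik had 0. Depth and the pseudocount thus limit the median of -5.02, and an effect of position was not tested. The 7 members that RefSeq classes as protein coding had a median of -3.49, against -2.76 for the 65 matched members it does not.

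**Figure D2:**
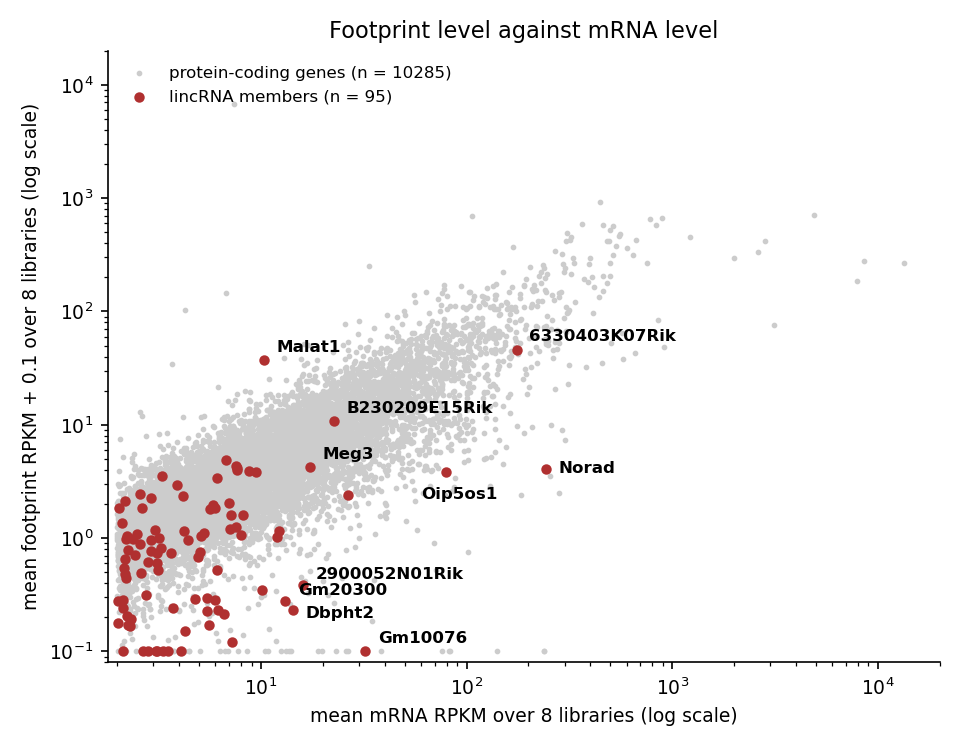
Mean footprint RPKM + 0.1 (y axis, log scale) against mean mRNA RPKM (x axis, log scale) over 8 libraries for 10285 protein-coding genes (grey) and the 95 lincRNA members (red). Most members lie low in or below the grey cloud. Malat1 lies at its upper edge, and Norad far below genes of like mRNA level. Gm10076 had 0 footprint counts, so its point lies at the floor of 0.1.

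Well-studied lincRNAs stood at both ends of this order. Malat1, a nuclear-speckle RNA whose mature end is a triple helix and not a poly(A) tail (ENSMUSG00000092341, chr19:5795690-5802672, minus strand), had the highest ratio, at 1.83 ± 0.50 (SD, n = 8). Its mRNA level was 9.11, 11.3, 14.6 and 7.52 RPKM in WT and 10.9, 8.59, 13.3 and 7.24 RPKM in KO. Its footprint level was 29.6, 36.8, 32.8 and 55.1 RPKM in WT and 46.7, 28.8, 36.8 and 29.0 RPKM in KO. Genotypes overlapped in both. Footprint and mRNA RPKM were scaled separately, so neither level of Malat1 can be called the higher. The labels give polyA RNA as the molecule, and how far selection lowered the mRNA level of Malat1 was not tested. With Meg3 and 6330403K07Rik it held 59.4% of the 10475 footprint counts on members.

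Norad was the opposite case, with the lowest ratio among the 46 members with at least 20 footprint counts, at -5.95 ± 0.44. Its footprint level was 1.87, 5.31, 4.32 and 4.67 RPKM in WT and 3.59, 4.11, 4.49 and 3.46 RPKM in KO, from 315 counts, against about 240 RPKM of mRNA. Oip5os1 came next, at -4.40 ± 0.47 from 499 counts. These SDs are far smaller than the gap of either to the coding median. Meg3 was intermediate, at -2.06 ± 0.31 from 1173 counts.

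After Malat1, the highest ratios were those of Dubr (-0.64 ± 1.72), Snhg12 (-0.64 ± 0.82), Gm26809 (-0.69 ± 0.50), Gm2464 (-0.92 ± 1.95), 1810058I24Rik (-0.95 ± 0.56), Pantr1 (-0.96 ± 0.74) and Miat (-0.97 ± 0.72). Their SDs overlapped, so these 7 have no order. Snhg12 hosts small nucleolar RNAs, and its annotated Snora16a, Snora44, Snora61 and Snord99 had 0 footprint counts of their own. The transcript 1810058I24Rik is reported to encode a mitochondrial micropeptide. Miat is a nuclear RNA of neurons. The lowest ratios were ranked among the 46 members with at least 20 footprint counts. After Norad and Oip5os1 came Gm1976 (-4.05 ± 1.40), Mir124-2hg (-3.82 ± 0.87) and Tmem250-ps (-3.62 ± 0.72). Gm10419 (-3.48 ± 0.48), Gm35040 (-3.32 ± 1.63) and Gm43672 (-3.12 ± 2.28) followed.

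**Figure D3:**
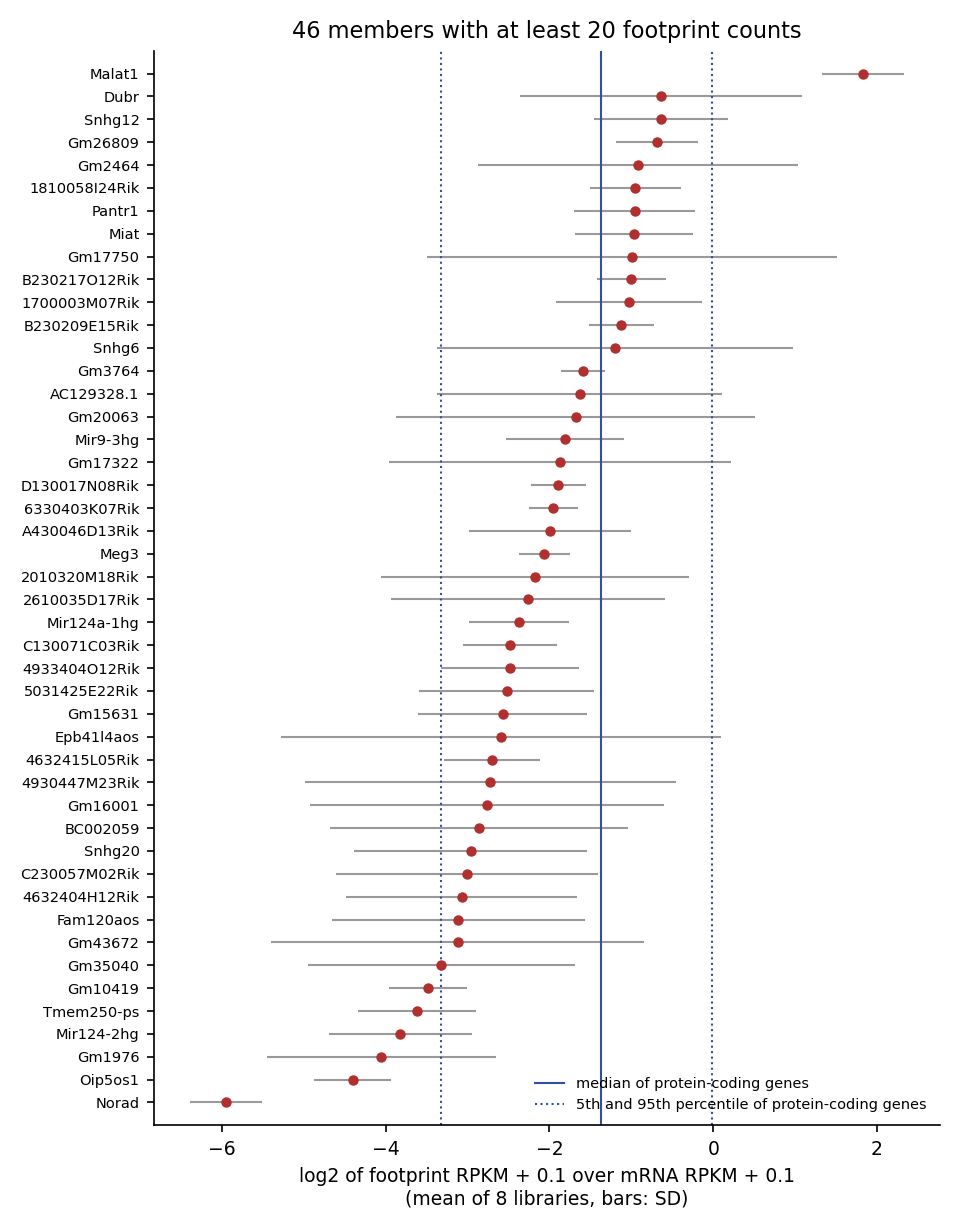
Mean log2 ratio of footprint to mRNA RPKM (x axis; points, with the SD over 8 libraries as bars) of the 46 members with at least 20 footprint counts, in order. The solid line is the median of protein-coding genes (-1.37) and the dotted lines are their 5th and 95th percentiles; 13 members lie right of the solid line, and Norad and Oip5os1 are leftmost.

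Members known as hosts of small RNAs were spread between these ends. Gm3764, the host of Mir9-1, had a ratio of -1.59 ± 0.27. Of the 4 members on the list of microRNA hosts, Mir9-3hg had a ratio of -1.81 ± 0.72, Mir124a-1hg -2.37 ± 0.61, C130071C03Rik -2.48 ± 0.57 and Mir124-2hg -3.82 ± 0.87. The small nucleolar RNA hosts Snhg6 (-1.20 ± 2.17), Epb41l4aos (-2.59 ± 2.69), Snhg10 (-2.59 ± 1.97) and Snhg20 (-2.96 ± 1.42) had few counts, between 9 and 75, and their SDs span most of the members' range. The 17 members that overlap a small RNA gene had a median of -2.37 against -3.40 for the other 78. Those 17 were also longer (median 4365 against 1666.5 bases) and had more footprint counts (median 75 against 12.5). They include Dubr and Gm1976, which overlap a small RNA gene only on the opposite strand. Malat1 and Miat, also among them, overlap only miscellaneous RNA entries with 0 footprint counts of their own. Whether small RNA reads were also counted for the host was not tested.

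Loss of Nsun5 was then compared at the mRNA level. No member passed the test: 0 of 95 reached an adjusted p of 0.05 by edgeR's quasi-likelihood test, where 0% of the 13058 genes of all classes did. At an unadjusted p under 0.05, 6 members were higher (background 5.32%) and 1 was lower (background 5.22%) in KO, together 7.37% of members against 10.5% of all genes. The median log2 difference of members was 0.01, with 50 above 0 and 45 below, against -0.01 over all genes tested. The median SE was 0.17 for members and 0.11 for all genes.

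Some lists of cell type markers moved with genotype beside these values, and others stayed near 0. All 10 myelin markers were below 0, at a median log2 difference of -0.42, with summed levels of 1260 to 1380 RPKM in WT and 824 to 1140 RPKM in KO. All 8 cortical neuron markers were above 0, at a median of 0.44, with sums of 498 to 648 RPKM in WT and 586 to 781 RPKM in KO. Some regional lists moved as well. All 8 choroid plexus and ependyma markers were below 0 (median -0.87), with sums of 241 to 883 RPKM in WT and 38 to 913 RPKM in KO. All 6 striatal markers were below 0 (median -0.32; 114 to 584 and 148 to 562 RPKM). Also below 0 were the 4 of 8 listed cerebellar markers that passed the mRNA filter (median -0.66; list sums 51.7 to 80.7 and 45.2 to 49.6 RPKM). Of that list, Cbln3, En2, Gabra6 and Pcp2 did not pass, and whether the sums follow cerebellar tissue was not tested. The 5 hypothalamic markers tested were below 0 too (median -4.43; list sums 5.03 to 158 and 2.81 to 16 RPKM). WT library 4, at 5.03 RPKM, lay within the KO range. The myelin and cerebellar sums did not overlap between genotypes. Lists near 0 were thalamus (3 markers below 0 and 1 above, median -0.05), astrocyte (3 and 2, -0.09) and microglia (4 and 1, -0.07). Endothelium (3 and 1, -0.12) and blood (2 and 2, 0.04) were also near 0. None of these markers passed the test, and the part of dissection or cell composition in the lincRNA values was not tested.

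Oip5os1 had the lowest p among members. Its mRNA level was 75.9, 63.4, 75.6 and 68.7 RPKM in WT and 85.6, 84.7, 94.2 and 85.7 RPKM in KO. Every KO library lay above every WT library, which held for 2 members in this direction (background 3.61% of genes); in either direction it was 3.16% of members against a background of 5.84%. The log2 difference was 0.29 ± 0.07 (SE; 95% interval 0.12 to 0.45), with an adjusted p of 0.337 by edgeR. DESeq2 gave an adjusted p of 0.0405 and called Oip5os1 alone of the 36 members for which it returned one, with 0.768% of all such genes called. Its other alternatives gave 0.24 to 0.32 on the log2 scale, none past the threshold.

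The second such member was Gm10419, with a start rich in CG and overlapping the coding gene Gm42517 on the other strand. It read 11.7, 11.6, 11.2 and 10.6 RPKM in WT and 13.9, 12.6, 13.0 and 13.5 RPKM in KO. The log2 difference was 0.21 ± 0.06 (adjusted p = 0.337 by edgeR). Without strand information, reads of the 2 overlapping genes cannot be told apart. Of the other members with the lowest p in this direction, 4930447M23Rik had a log2 difference of 0.44 ± 0.16, Gm35040 0.36 ± 0.14 and Gm1976 0.27 ± 0.10, with adjusted p between 0.406 and 0.427 by edgeR and overlapping groups.

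In the other direction, 4930516B21Rik was the only member with every KO library below every WT library (background 2.24%). It read 2.79, 3.24, 3.11 and 2.83 RPKM in WT and 2.30, 1.82, 2.70 and 2.54 RPKM in KO, with 0 footprint counts. Its log2 difference was -0.37 ± 0.18 (adjusted p = 0.495 by edgeR). The groups overlapped for 1700096K18Rik (-0.51 ± 0.21), Gm45847 (-0.41 ± 0.20), Gm45495 (-0.25 ± 0.12) and Snhg12 (-0.24 ± 0.11), with adjusted p of 0.442 to 0.50 by edgeR. Norad, with the smallest error of the abundant members, differed by 0.03 ± 0.06 (95% interval -0.09 to 0.15), and 6330403K07Rik by -0.16 ± 0.11.

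By role, no member of any list passed the test. The list of 19 nuclear and chromatin RNAs also holds well-studied RNAs that act in the cytoplasm, and 5 of the 19 were members, with a median of -0.05. Malat1 was at -0.10 ± 0.22, Miat at -0.05 ± 0.22, Meg3 at -0.30 ± 0.15, Norad at 0.03 ± 0.06 and Oip5os1 at 0.29 ± 0.07. Malat1, Miat and Norad thus lay within their SE of 0. In footprints and in the relative change all 5 were below 0, with 0 called. Meg3 was also the 1 member of 3 Dlk1-Dio3 RNAs (adjusted p = 0.50 by edgeR). Of 24 small nucleolar RNA hosts 5 were members, with a median of -0.11, and of 22 listed microRNA hosts 4 were, with a median of 0.04. Gm3764, a microRNA host outside that list, differed by -0.06 ± 0.13. Pantr1 and C130071C03Rik, of 20 neighbours of developmental transcription factor genes, differed by 0.22 ± 0.15 and 0.06 ± 0.10. Of 12 transcripts reported to encode a small protein 3 were members, with a median of -0.16.

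**Figure D4:**
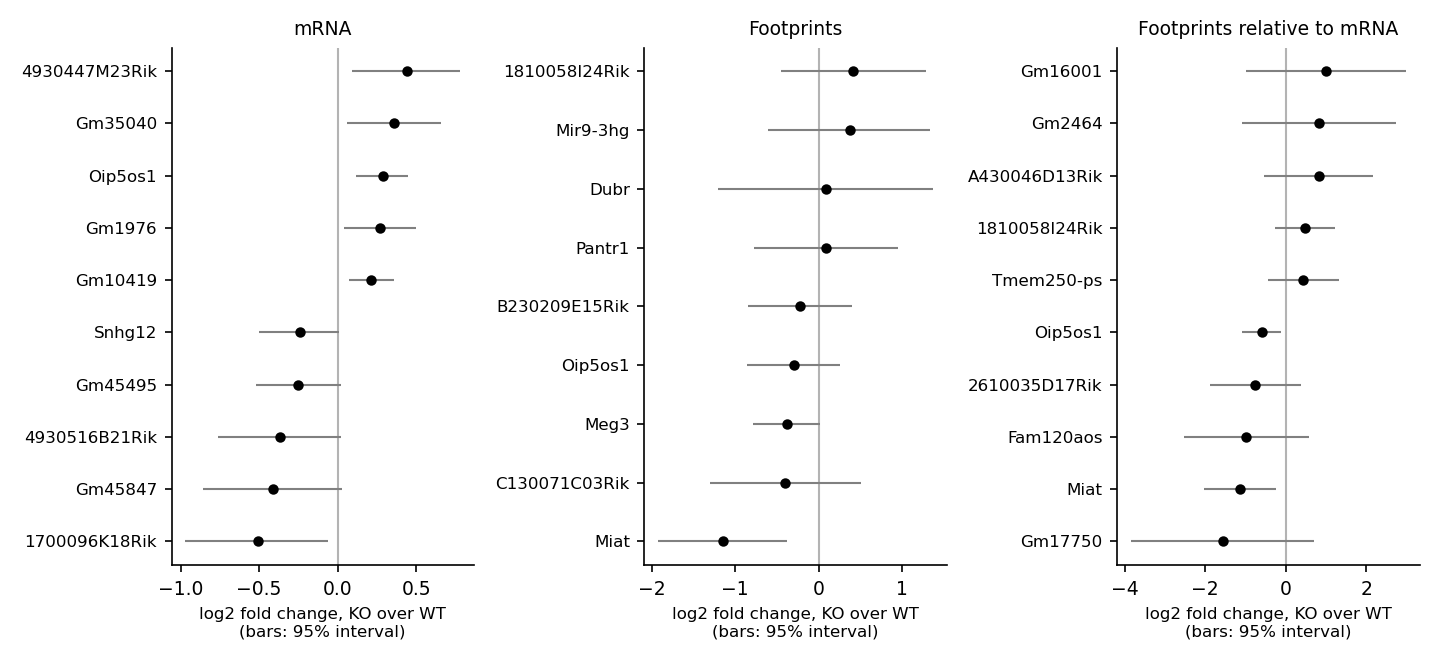
Log2 fold change of KO over WT (x axis; points, with 95% intervals as bars) by edgeR for the members with the lowest p in each direction, for mRNA (left), footprints (middle) and footprints relative to mRNA (right). None passed an adjusted p of 0.05; the mRNA interval of Oip5os1 runs from 0.12 to 0.45 and the footprint interval of Miat from -1.92 to -0.38.

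No member passed the test in footprints either. The filter on low counts was passed by 14 of the 95 members, and 0 of those 14 were called by edgeR, with 0% of 8476 genes called. DESeq2 also called 0 of the 14, with 0.0472% of genes called. At an unadjusted p under 0.05, 0 members were higher (background 2.88%) and 1, Miat, was lower (background 2.64%), against 5.52% of all genes in either direction. Of the 14, 4 were above 0 and 10 below, with a median of -0.11 and a median SE of 0.38; that median was -0.26 without WT libraries 1 and 2.

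Miat (ENSMUSG00000097767, chr5:112213228-112229395, minus strand) had footprint levels of 2.21, 4.66, 3.26 and 2.12 RPKM in WT and 2.03, 1.14, 1.98 and 0.813 RPKM in KO. The WT libraries gave 38, 146, 87 and 55 counts and the KO libraries 16, 21, 10 and 8. Every KO value lay below every WT value, by a narrow margin between 2.03 and 2.12 RPKM, and it was the 1 member of the 14 without overlap in this direction (background 1.91%). No member had KO above WT throughout (background 1.62%; 3.53% of genes in either direction). The log2 difference was -1.15 ± 0.36 (95% interval -1.92 to -0.38; adjusted p = 0.863 by edgeR). With all 22286 genes that had any footprint count in the fit, the adjusted p was 0.0326 and Miat was the only member of 86 called, with 0.386% of genes called. Without WT library 2, the highest, the log2 difference was -0.86. Its mRNA level overlapped between genotypes, at 3.92, 3.38, 5.56 and 3.96 RPKM in WT and 4.19, 5.20, 4.63 and 2.43 RPKM in KO.

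Meg3 footprints were 4.54, 3.49, 5.19 and 5.20 RPKM in WT and 4.55, 3.15, 3.76 and 2.93 RPKM in KO. The groups overlapped, and the log2 difference was -0.38 ± 0.19 (adjusted p = 0.881 by edgeR). Malat1 differed by -0.14 ± 0.23 and Oip5os1 by -0.30 ± 0.26. Among members above 0, 1810058I24Rik differed by 0.41 ± 0.40 and Mir9-3hg by 0.37 ± 0.45, both within their error. Pantr1 and Dubr were each at 0.09, with SEs of 0.40 and 0.60, and changed sign under other settings. C130071C03Rik (-0.40 ± 0.42) and B230209E15Rik (-0.22 ± 0.29) were below 0.

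**Figure D5:**
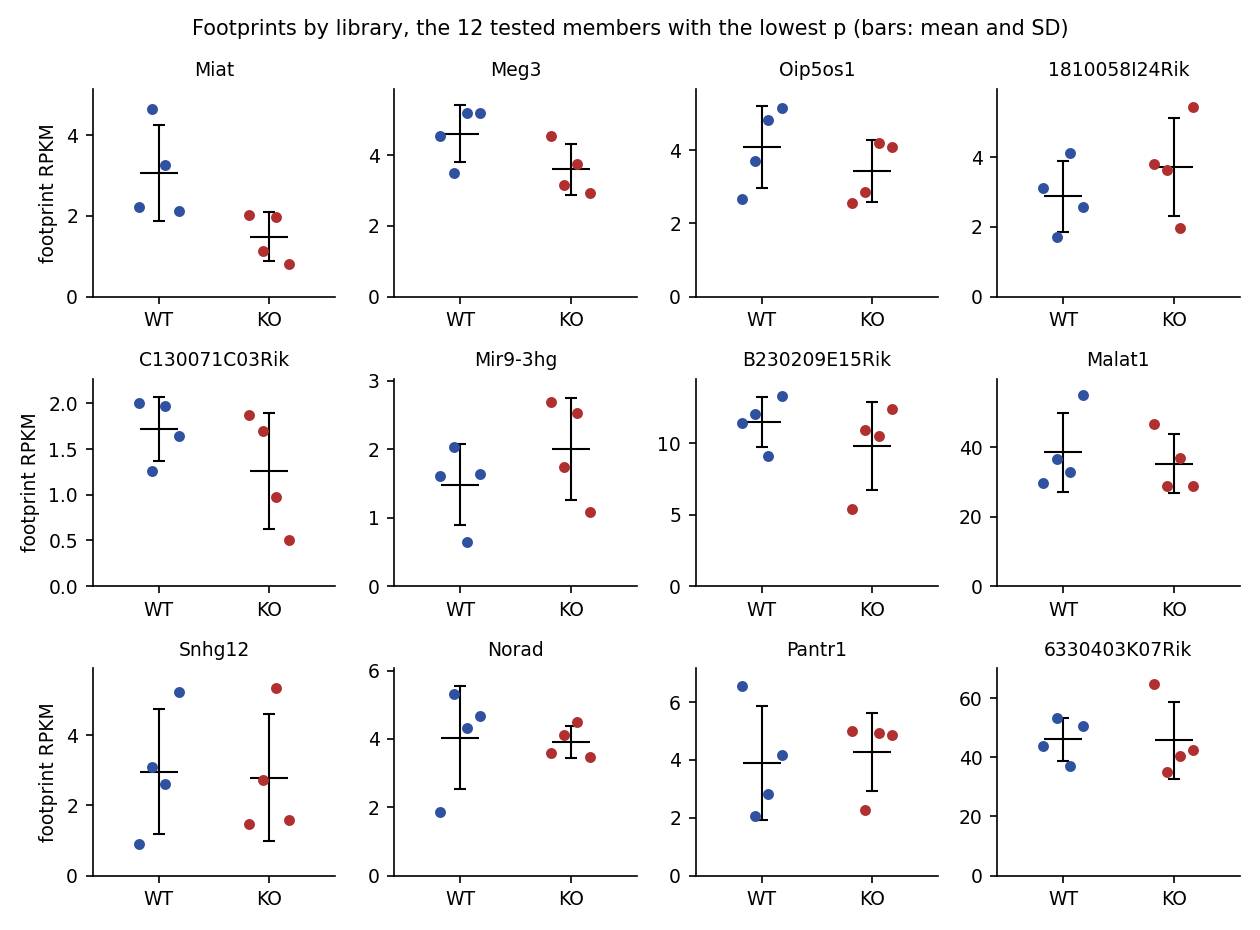
Footprint RPKM (y axis, from 0) of 12 of the 14 tested members in the 4 WT (blue) and 4 KO (red) libraries, with the mean and SD as black bars. The KO points of Miat lie below all its WT points, and the genotypes overlap in the other 11 panels.

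Footprints relative to mRNA were compared in 1 model of all 16 libraries, as the interaction of genotype with library kind. Of 34 members with enough signal in both kinds, 0 were called by edgeR, with 0% of 9673 genes called. At an unadjusted p under 0.05 0 members were higher (background 5.37%) and 2 were lower (background 5.44%), against 10.8% of all genes in either direction. Of the 34, 13 were above 0 and 21 below, with a median of -0.07 and a median SE of 0.51, against 0.00 and 0.30 for all genes.

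The 2 members were Miat and Oip5os1. For Miat the relative log2 difference was -1.14 ± 0.43 (95% interval -2.04 to -0.24; adjusted p = 0.348 by edgeR), and -0.76 without WT library 2. For Oip5os1 it was -0.60 ± 0.24 (95% interval -1.09 to -0.11; adjusted p = 0.365 by edgeR), with mRNA levels as given above. Its footprints were 2.67, 3.71, 4.82 and 5.14 RPKM in WT and 2.55, 2.86, 4.20 and 4.10 RPKM in KO, and these groups overlapped. The other members named by p had wider errors. Gm17750 was at -1.56 ± 1.10, Fam120aos at -0.98 ± 0.75 and 2610035D17Rik at -0.75 ± 0.54. On the other side were Gm16001 at 1 ± 0.96, Gm2464 at 0.83 ± 0.92, A430046D13Rik at 0.82 ± 0.65, 1810058I24Rik at 0.48 ± 0.36 and Tmem250-ps at 0.44 ± 0.42. Leaving out 1 replicate at a time moved these values widely: Gm17750 from -2.82 to -0.84, Fam120aos from -1.62 to -0.21, 2610035D17Rik from -1.42 to -0.46, Gm2464 from 0.08 to 1.62, A430046D13Rik from 0.41 to 1.53, 1810058I24Rik from 0.21 to 0.74, Tmem250-ps from 0.03 to 0.97 and Gm16001 from -7.32 to 1.90. For Norad it was -0.13 (95% interval -0.66 to 0.40), for Meg3 -0.08 (95% interval -0.58 to 0.43) and for Malat1 -0.04 (95% interval -0.68 to 0.61).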

How the data were processed

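Per the submitters' processing notes, TopHat2 and the mm10 build were used; the role of each, the counting tool, annotation and filters are not given in the sources used here. The deposited tables hold raw counts and RPKM, which the authors made from them with gene length and a library size. Library totals limit precision. The limit at a count of 0 covers counting error only; SEs and intervals come from the fits and hold the spread between libraries.

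From the counts, edgeR 4.0.16 (R 4.3.3) ran quasi-likelihood tests with TMM scaling on 4 WT and 4 KO libraries. Genes of all classes entered: mean mRNA RPKM of at least 1 for mRNA, filterByExpr for footprints, and for the interaction the same RPKM minimum in footprints and in mRNA. Benjamini-Hochberg adjustment ran over all genes tested. Ratios used RPKM + 0.1. Scripts were tested on simulated data. DESeq2 1.42.0 and limma 3.58.1 served as alternatives, with other scalings, filters, a replicate block and each library left out. Named genes were the 12 highest in mRNA, the 8 highest and 8 lowest ratios with at least 20 footprint counts, up to 5 lowest p per direction and comparison, the 5 on each side of the threshold, and the role lists. Members and lists were chosen with earlier results of these data known. Matching by symbol and position tied 72 of 95 members to RefSeq.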

Additional observations from a re-analysis of the deposited data

Results flagged for a closer look

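Within a genotype, 5 values stood far from the other 3 libraries by Dixon's test, among 56 groups tested; chance alone gives about 1 in 20. Oip5os1 (1700020I14Rik) mRNA was 94.2 RPKM in KO library 3 and 84.7 to 85.7 RPKM in the other KO libraries. The mRNA level of 1700096K18Rik was 2.51 RPKM in KO library 2, with the others at 1.66 to 1.78 RPKM. B230209E15Rik mRNA was 27.9 RPKM in WT library 2 and 20.3 to 21.4 RPKM in the others. Gm45495 mRNA was 6.45 RPKM in WT library 3 and 5.71 to 5.76 RPKM in the others. Pantr1 footprints were 2.26 RPKM in KO library 2 and 4.88 to 5.02 RPKM in the others.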

How the results depend on the processing

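Of 95 members, 1 was called in mRNA by DESeq2 (Oip5os1) and 1 in footprints without a filter (Miat); every other setting run called 0, including each library left out in turn (0 to 0). The median footprint difference was -0.26 without WT libraries 1 and 2 and -0.23 to 0.01 with single libraries left out; the mRNA median was then -0.00 to 0.04 and the relative median -0.18 to 0.04. The median ratio was -4.34 and -1.59 with pseudocounts of 0.01 and 1, -2.38 with CPM per kilobase over coding and lincRNA counts, -2.37 as a ratio of mean RPKM and -2.22 without members under 20 footprint counts; its difference from coding genes was then -2.92 and -0.52 for the pseudocounts, -2.14 for CPM, -1.11 for mean RPKM, and -0.84 for the count minimum, or -0.87 (median ratio -2.22) with that minimum on coding genes too. With single replicates left out the ratio was -3.29 to -3.09 and the difference -1.92 to -1.74. Signs turned for Dubr footprints (-0.64 and -0.11 by limma with pseudocounts of 0.1 and 1, -0.02 with the replicate block, -0.22 to 0.46 with single libraries left out), Pantr1 footprints (-0.13 to 0.44) and relative Gm16001 (-1.70 by limma on the ratio, and -7.32 without KO replicate 2, which held 10 of its 21 footprint counts; -7.32 to 1.90 over replicates). The cause was not tested, apart from that count. Same-numbered WT and KO libraries did not deviate together (correlations -0.238 to 0.031 in mRNA, -0.247 to 0.075 in footprints), so numbers were not taken as pairs; with the replicate block, 0 members were called in mRNA, footprints or the relative change, at medians of 0.01, -0.09 and -0.06. The ratio of mean RPKM, single genotypes, both 20-count minimums and leaving out members that overlap a coding gene were chosen after seeing the data. Footprint depth limits the rest: 9 members had 0 counts and 40 had 1 to 19.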
